A study of Mus musculus with 10 samples.

Results

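Arf6, Tgoln1, Rabep1 and Snx13 encode proteins of Golgi and endosome membrane traffic, and they are 4 of the 89 genes that could be named among 2300 features on a spotted muscle array. They were taken by symbol from the platform annotation (Entrez Gene 11845, 22134, 54189 and 217463), each from 1 probe spotted 4 times. RNA of denervated tibialis anterior (TA) muscle, a fast-twitch hindlimb muscle, was compared with RNA of the contralateral TA muscle in CD1 mice aged 3 months. The 10 two-colour arrays covered 5 time points, time 0 and days 1, 3, 7 and 14 of denervation, each with a first labelling and a second array on which the dyes were reversed. No transgene or drug is named in the labels, and the contralateral muscle of denervated mice, not muscle of an unoperated mouse, was the comparator. The labels do not say how the nerve was interrupted, what time 0 stands for, how many animals were used or whether the arrays of a time point shared extracts. Each value below is a log2 ratio, denervated over contralateral, taken per array as the median of 4 spots and per time point as the mean ± SD of 2 arrays.

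Cargo leaves the trans-Golgi network in carriers, reaches the cell surface or endosomes, and is taken up again by endocytosis and either recycled or degraded. Arf and Rab GTPases mark these compartments and recruit effectors, while sorting nexins bind endosomal lipids. Muscle fibres use these routes to place transporters and receptors, such as the insulin-responsive glucose transporter and the acetylcholine receptor, at the surface. Whole muscle was extracted, so a change in RNA per fibre and a change in the mix of cells cannot be told apart.

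Over all features, the labellings shared a sign least often at day 1 (51.5% of features) and most often at day 3 (74.5%). Pearson's r between the arrays of a time point, across features, which are not independent, ran from -0.29 at day 1 to 0.27 at day 3. Spearman's rho for the same pairs was higher throughout, from 0.10 at day 1 to 0.66 at day 3. Of 25 array pairs of opposite labelling 2 had r under -0.3, and of 20 pairs of the same labelling 0 did, with a lowest r of -0.07. Of 70 markers of muscle fibres, denervated muscle and other cell types, 2 were measured under a single symbol, the fibre genes Neb (time-point means from -0.23 to 1.25) and Trdn (-0.65 to 0.09). Ratios hold no expression level, so the tissue was not checked by them, and no listed marker of another cell type was measured under a single symbol.

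Arf6, a small GTPase that acts at the plasma membrane and on recycling endosomes, was below the contralateral level at time 0, highest at day 3 and near it again at day 14. Its first and reverse labellings gave -0.59 and -0.17 at time 0, 0.08 and 0.05 at day 1, and 0.71 and 0.39 at day 3. They gave 0.45 and 0.21 at day 7, and -0.12 and -0.07 at day 14. The arrays of days 1, 3, 7 and 14 all lay above both arrays of time 0, as 24.9%, 30.9%, 31.6% and 22% of features did on those days, and day 14 lay below day 3 without overlap (27.3% of features). These shares are for single pairs of time points, and the share of features showing all of them was not counted. At day 3 the mean was 0.55 ± 0.23 (SD, n = 2 arrays), or 1.47 times the contralateral level, and all 8 spots were above 0, from 0.30 to 0.82. At time 0 the mean was -0.38 ± 0.30 (SD, n = 2), 0.767 times the contralateral level, and all 8 spots were below 0. Over all probes, 17.6% had all 8 spots above 0 at day 3 and 13.3% had all 8 below 0 at time 0.

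The change of Arf6 from time 0 to day 3 was the single difference among the 4 genes that passed the test, a limma fit on the 10 arrays with Benjamini-Hochberg adjustment over 2300 features. The adjustment was made within each comparison of time points and not across the comparisons. The log2 ratio rose by 0.93 (95% interval 0.44 to 1.43, adjusted p = 0.0494), by 1.31 on the arrays of the first labelling and by 0.56 on those of the reverse labelling. In that comparison 1 of 4 members was called higher and 2.52% of all features were called higher, 6.96% in either direction. This p takes both arrays of a time point as separate samples and rests only on how far arrays differ, a spread that may be technical. Without the first labelling of time 0 the difference was 0.72, and without the reverse labelling of time 0 it was 1.15. Without the first labelling of day 3 it was 0.77, and without the reverse labelling of day 3 it was 1.10. Most of these fits lost the call. They cannot decide it, because a time point with 1 array takes its spread from the others. The call was also lost, with values from 0.75 to 0.93, under 6 other settings. These were the mean of the spots, centred arrays, centred print blocks, a labelling block (adjusted p = 0.0665), robust eBayes and a fit without day 14. The call held with arrays scaled (adjusted p = 0.0452). It held when repeated values were dropped (0.0380), with 2058 features tested. It also held among features whose spots agreed to 2 log2 units (0.00921), where 569 of 1285 features were called. Arf6 had 0 repeated values and 0 arrays with a wider span. The last 2 settings thus left its own values unchanged and altered only the other features. The ratio against the contralateral muscle at day 3 did not pass on its own (adjusted p = 0.0712, unadjusted p = 0.00805, interval 0.20 to 0.90).

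From day 3 onward the Arf6 ratio stood lower on each later day, with differences that did not pass over all features. The mean was 0.33 ± 0.17 at day 7 and -0.09 ± 0.04 by day 14 (SD, 2 arrays). Day 14 minus day 3 was -0.64 (interval -1.14 to -0.15, adjusted p = 0.105), against 7.52% of features called in either direction. Among features whose spots agreed to 2 log2 units it passed (adjusted p = 0.0384), as did 429 of the 1285 features tested there. Day 7 minus time 0 was 0.71 (interval 0.22 to 1.21, adjusted p = 0.0757), against 11% of features called. It passed under the same restriction (adjusted p = 0.0228), as did 553 of the 1285 features. Ordered by their means, the time points ran day 3, day 7, day 1, day 14 and time 0, and no neighbours in this order differed past the threshold (adjusted p from 0.50 to 0.733). Neighbours have the closest means by choice, so these tests cannot tell whether time points further apart differ. The probes of the print block that held Arf6 had a median of 0.20 at day 3, and with that block centred on each array Arf6 stood at 0.37 there (adjusted p = 0.201).

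**Figure D1:**
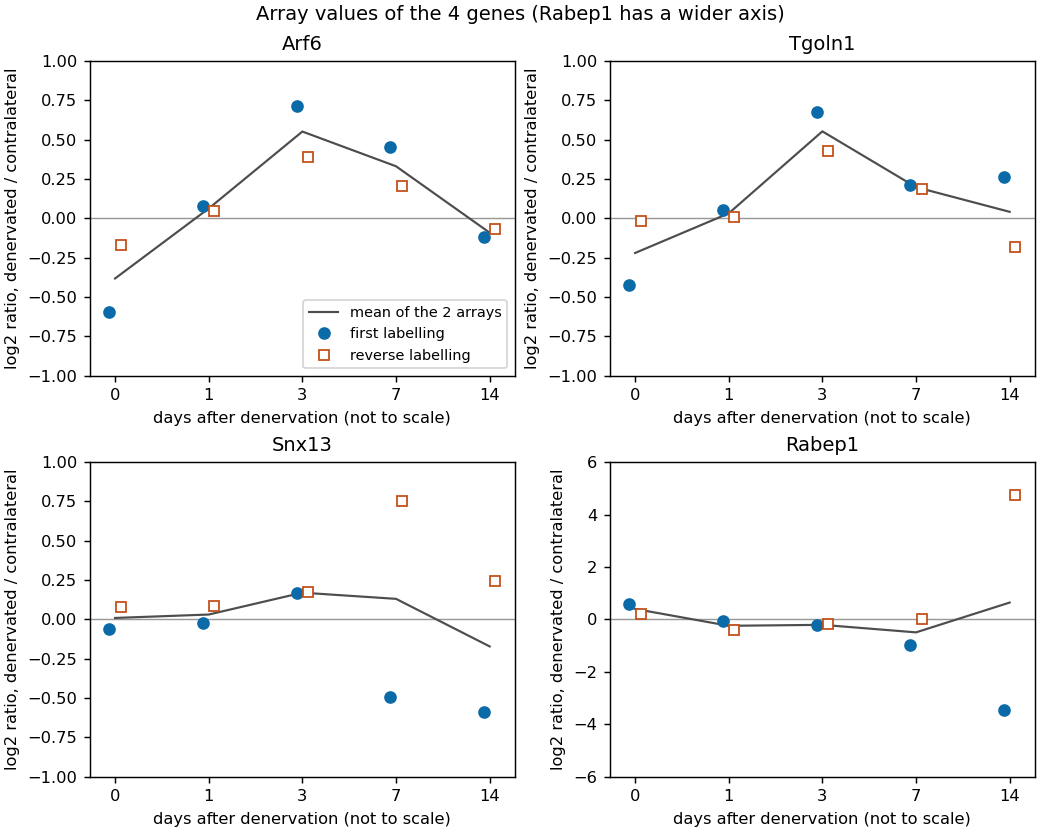
Log2 ratios of denervated over contralateral muscle for Arf6, Tgoln1, Snx13 and Rabep1 at time 0 and days 1, 3, 7 and 14 (spaced evenly, not to scale). Filled circles are the first labelling, open squares the reverse labelling and the line their mean; Arf6 and Tgoln1 peak at day 3 (0.55 each), while Rabep1, drawn on a wider axis, splits into -3.44 and 4.73 at day 14.

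Tgoln1 encodes the trans-Golgi network protein TGN38, which cycles between the trans-Golgi network and the plasma membrane and is widely used to mark that compartment. Its first and reverse labellings gave -0.42 and -0.02 at time 0, 0.05 and 0.01 at day 1, and 0.68 and 0.43 at day 3. They gave 0.21 and 0.19 at day 7, and 0.27 and -0.18 at day 14. Day 3 was the highest time point on either labelling, and its arrays lay above those of all other time points. Taken pair by pair, 30.9% of features did so against time 0, 29.6% against day 1, 20% against day 7 and 27.3% against day 14. The share that did so against all of them was not counted. The mean of Tgoln1 at day 3 was 0.55 ± 0.18 (SD, n = 2), 1.47 times the contralateral level, with all 8 spots above 0, from 0.11 to 0.80. The adjusted p was 0.0823 (unadjusted p = 0.0111, interval 0.18 to 0.93).

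Against time 0, Tgoln1 differed by 0.77 at day 3 (interval 0.24 to 1.31), by 0.42 at day 7 (-0.12 to 0.95) and by 0.26 at day 14 (-0.27 to 0.80). The day 3 difference did not pass (adjusted p = 0.0767), and it was 1.10 on the first labelling and 0.44 on the reverse. The day 7 and day 14 differences had adjusted p = 0.264 and 0.571. In order of their means the time points ran day 3, day 7, day 14, day 1 and time 0, and no neighbours differed past the threshold (adjusted p from 0.599 to 0.987). Such neighbours were picked for their closeness, so these tests cannot tell whether time points further apart differ. The print block of Tgoln1 had a median of -0.09 at day 3, and with it centred Tgoln1 stood at 0.62 there (adjusted p = 0.0709).

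Of the 4 genes, Tgoln1 and Snx13 had a promoter window in the RefSeq table (GRCm38.p6). That of Tgoln1 is shown because its time course was close to that of Arf6, and it covers chr6:72616951-72617250 on the minus strand, 250 bases before to 50 after the start. Capitals mark the E-box CANNTG, which reads the same on both strands and which myogenic basic helix-loop-helix factors such as myogenin can bind.
Tgoln1 promoter: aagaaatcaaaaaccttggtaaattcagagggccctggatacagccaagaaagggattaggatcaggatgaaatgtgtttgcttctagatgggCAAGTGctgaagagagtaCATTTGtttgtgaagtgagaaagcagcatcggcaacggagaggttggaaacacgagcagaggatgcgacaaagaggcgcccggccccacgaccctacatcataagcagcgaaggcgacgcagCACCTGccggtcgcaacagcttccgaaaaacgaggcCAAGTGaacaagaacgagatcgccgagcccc
The window held 4 E-boxes and no CCAAT box (CCAAT, either strand), and the motifs do not overlap each other. At least 1 E-box was found in 72.3% of the 32851 windows of that length and a CCAAT box in 37.4%. The share of windows with 4 E-boxes was not counted, so these letters describe the window only.

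Arf6 and Tgoln1 had nearly the same time course. The root mean square difference of their 5 time-point means was 0.11 log2 units, against a median of 0.50 over the 3916 pairs of named genes. Each was the other's second nearest among 88 other named genes. Among all 2299 other features Tgoln1 was number 49 in nearness to Arf6. Both means at day 3 were above 89.1% of features, so about 250 features stood as high or higher. The fit's spread between the labellings, pooled over the 5 time points, was 0.19 for Arf6 and 0.21 for Tgoln1. The median over features was 0.29. At time 0 and day 3 the labellings of Arf6 differed by 0.42 and 0.32 and those of Tgoln1 by 0.41 and 0.25. These gaps were above the median gaps over features, 0.31 and 0.24.

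**Figure D2:**
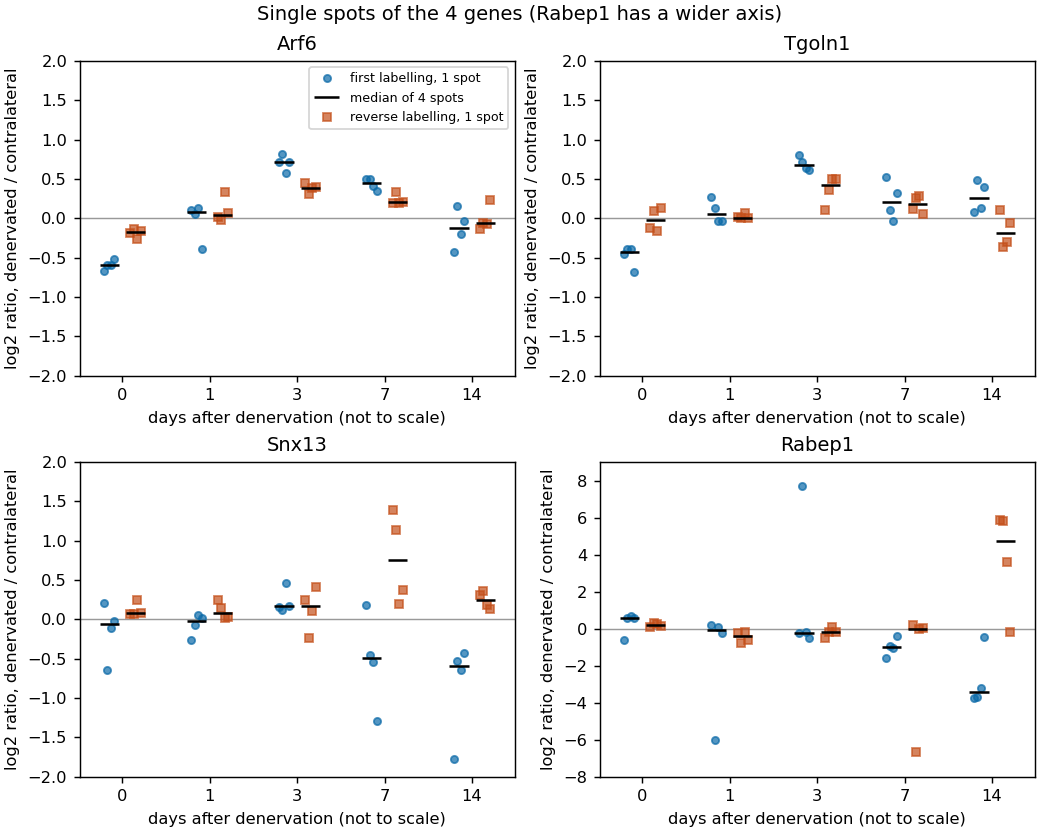
Single spot values (log2 ratio) of the 4 genes by time point, with circles for the first labelling, squares for the reverse labelling and a black bar at the median of the 4 spots. The spots of Arf6 span at most 0.58 on an array and those of Tgoln1 at most 0.56, while single spots of Rabep1 (wider axis) lie as far as 7.72 and -6.66 from 0.

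Snx13, a sorting nexin with a lipid-binding PX domain and a regulator of G protein signalling domain, stayed near the contralateral level through day 3 and then differed between labellings. The first and reverse labellings gave -0.06 and 0.08 at time 0, -0.02 and 0.09 at day 1, and 0.17 and 0.17 at day 3. They gave -0.49 and 0.75 at day 7, and -0.59 and 0.24 at day 14. At both late time points the first labelling was below 0 and the reverse labelling above it, so no direction of change can be read there. Day 7 averaged 0.13 ± 0.88, and day 14 averaged -0.17 ± 0.59 (SD, 2 arrays). At day 3 the arrays agreed to 0.01, at 0.17 ± 0.01, with 7 of 8 spots above 0 and an adjusted p of 0.836. The interval for a change from time 0 to day 3 ran from -0.90 to 1.22.

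Rabep1 encodes rabaptin-5, an effector of Rab5 on early endosomes that also binds Rab4. Its first and reverse labellings gave 0.59 and 0.21 at time 0, -0.07 and -0.42 at day 1, and -0.23 and -0.19 at day 3. They gave -0.99 and 0.00 at day 7, and -3.44 and 4.73 at day 14. Taken day by day, 21.9%, 29.1% and 25.2% of features had both arrays of days 1, 3 and 7 below both of time 0. The share with all of these days below was not counted. Rabep1 was below on all of them. The differences from time 0 were -0.64, -0.61 and -0.89 and did not pass (adjusted p = 1.00, 0.944 and 0.861).

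At day 14 the 2 arrays of Rabep1 gave opposite answers, at 0.0922 and 26.5 times the contralateral level. The gap of 8.17 log2 units between labellings was the 14th largest of 2300 features, where the median gap was 0.34. The mean of 0.64 ± 5.78 (SD, n = 2) therefore gives no direction.

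Single spots of Rabep1 also disagreed within arrays. By position, the 4 spots gave -3.74, -3.68, -3.20 and -0.46 on the first labelling of day 14. On the reverse labelling they gave 5.85, 5.84, 3.62 and -0.16. Most spots thus opposed each other between the labellings, and the last spot stood apart on each array. That -0.16 is 1 of 157 spots with exactly the same value on the reverse array, and may not be a measurement. With such repeated values left out, the reverse array stood at 5.84 and the day 14 mean at 1.2, and the arrays still had opposite signs. At earlier time points a single spot position gave -6.03 at day 1 and 7.72 at day 3 on the first labelling. It gave -6.66 at day 7 on the reverse, with the other 3 spots between -0.49 and 0.21 on those arrays. The 4 spots spanned more than 2 log2 units on 5 of 10 arrays for Rabep1 and on 0 of 10 for Arf6, Tgoln1 and Snx13. Between 4.95% and 26.2% of all probes did so on a given array, and 55.8% did so on none, so 0 of 10 was the commoner state. Averaging the spots instead of taking the median turned Rabep1 at day 3 from -0.21 to 0.75. Leaving both day 14 arrays out of the fit, an alternative chosen after seeing the data, narrowed the day 3 interval of Rabep1 from -4.13 to 3.72 to -0.84 to 0.42. In that fit the day 7 difference from time 0 had an unadjusted p of 0.0494 and did not pass (adjusted p = 0.156).

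**Figure D3:**
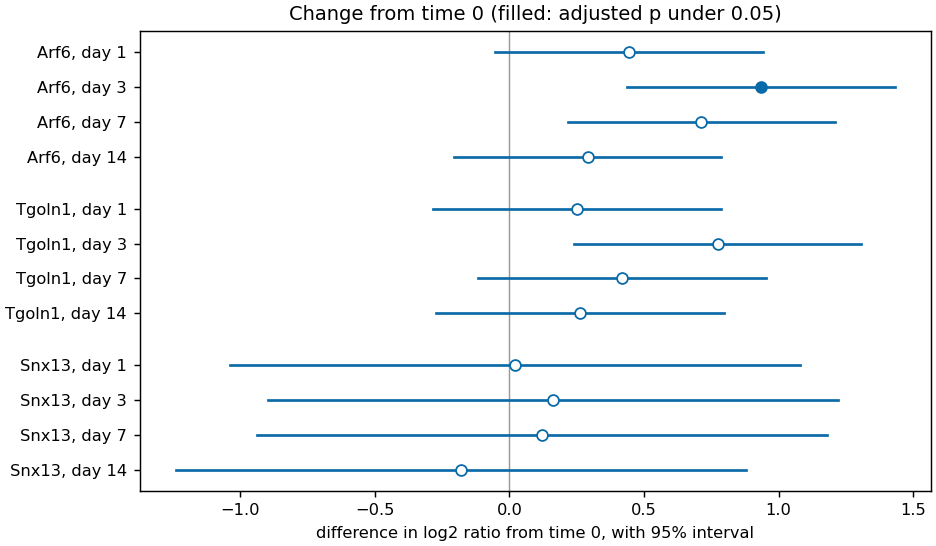
Difference in log2 ratio from time 0 (horizontal axis) for Arf6, Tgoln1 and Snx13 at days 1, 3, 7 and 14, with 95% intervals from the limma fit on 10 arrays. The filled point, Arf6 at day 3 (0.93), is the one with an adjusted p under 0.05, and Rabep1 is left out because its intervals span more than 10 log2 units.

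Set against the contralateral muscle at each time point, 0 of the 4 genes passed in the 10-array limma fit. The share of all features called was 0% at time 0 and 0.0435% at day 1, then 7.96%, 11.6% and 14.3% at days 3, 7 and 14. At an unadjusted p under 0.05 there was 1 of 4 at time 0 (Arf6, lower; 14.3% of features in either direction) and 2 of 4 at day 3 (Arf6 and Tgoln1, higher; 26.5%). At days 1, 7 and 14 there were 0 (1.96%, 29.9% and 33.4%). The median ratio of the 4 genes was 0.36 at day 3 and that of all features 0.06, and at day 14 the medians were -0.02 and -0.03. For differences from time 0, 0 of 4 passed at days 1, 7 and 14, where 0%, 11% and 4% of features did. At an unadjusted p under 0.05 there were 2 of 4 for day 3 minus time 0 (Arf6 and Tgoln1; 30% of features), 1 for day 7 minus time 0 (Arf6; 31.2%) and 1 for day 14 minus day 3 (Arf6; 26.4%).

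**Figure D4:**
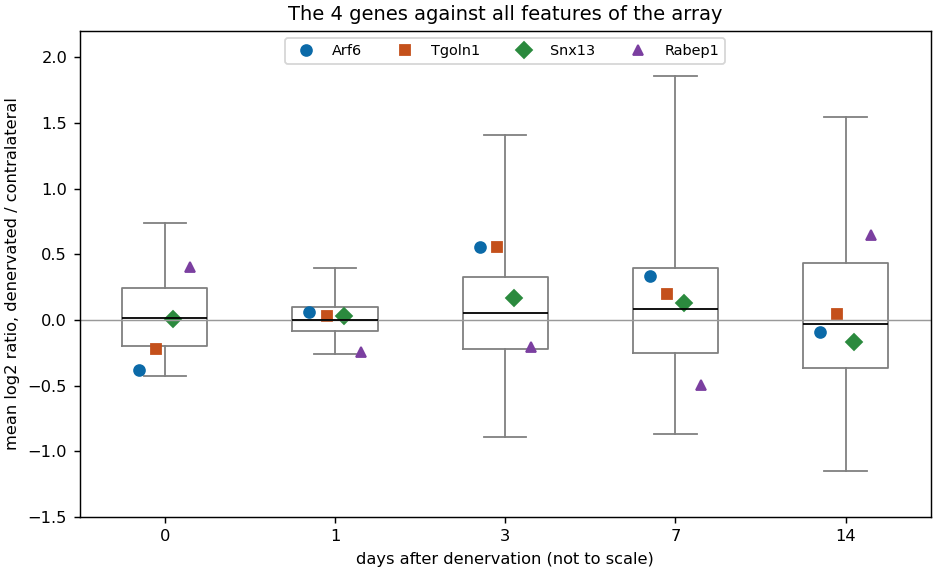
Mean log2 ratio of the 2 arrays at each time point for the 4 genes (symbols, spread sideways) over box plots of all 2300 features, with boxes from the lower to the upper quartile, a line at the median and whiskers at the 5th and 95th percentiles. Arf6 and Tgoln1 lie under the lower quartile at time 0 and over the upper quartile at day 3, and all 4 genes stay within the whiskers at every time point.

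Over the whole course the 4 genes were tested with each time point as 1 replicate. Arf6 averaged 0.21 ± 0.29 over days 1 to 14 (SD, n = 4 time points) and was above 0 on 6 of 8 arrays. The mean of Tgoln1 was 0.21 ± 0.24, with 7 of 8 arrays above 0. For Snx13 it was 0.04 ± 0.15 with 5 of 8 arrays, and for Rabep1 -0.07 ± 0.50 with 2 of 8. No mean passed in limma (adjusted p from 0.584 to 0.885), and 0 of 4 had an unadjusted p under 0.05, against 8.39% of features and 0% after adjustment. The slopes on log2(day + 1) ran from -0.03 for Snx13 to 0.09 for Arf6, and days 7 and 14 minus days 1 and 3 ran from -0.19 for Arf6 to 0.30 for Rabep1. For the slope and for late minus early, 0 of 4 genes passed at either threshold, adjusted or unadjusted. Over all features 0% passed both after adjustment, and 9.74% and 4.83% had an unadjusted p under 0.05. A ratio that was highest at day 3, as for Arf6 and Tgoln1, adds to the spread in these tests.

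The named genes with the time course most like that of each member were taken by root mean square difference over 5 time-point means. For Arf6 they were Gm6377 (0.09), Tgoln1 and Uggt1 (0.13), and for Tgoln1 they were Uggt1 (0.08), Arf6 and Usp40 (0.13). Uggt1, an endoplasmic reticulum enzyme that senses misfolded glycoproteins, stood at -0.21 at time 0 and 0.43 at day 3. Nearest to Snx13 were Wdr83os (0.08), the splicing factor gene Sfpq (0.12) and Trappc1 (0.14). Rabep1 lay further from its nearest named genes, with Zfp948 at 0.27, Dusp11 at 0.30 and Hspb2 at 0.30, and its own means rest on arrays that disagreed.

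Of a list of 175 other membrane traffic genes, 1 was measured under a single symbol, namely Nisch, whose product nischarin binds integrins and endosomal lipids. Nisch gave -1.53 and -1.27 at day 14, a mean of -1.40 ± 0.18 (SD, n = 2), and fell below the contralateral level there (adjusted p = 0.00396). At day 3, where Arf6 and Tgoln1 were highest, Nisch gave -0.02 and -0.03. Trappc1, Tmf1 and Sh3glb1 were added once the platform's gene names were known. Trappc1, a core subunit of the TRAPP tethering complex, stood at 0.27 ± 0.04 at day 3 and 0.37 ± 0.33 at day 7 (adjusted p = 0.329 and 0.182). Tmf1, a golgin, stood at -0.01 ± 0.14 and -0.35 ± 0.08 on these days (adjusted p = 0.997 and 0.244), and Sh3glb1, the membrane-bending endophilin B1, at 0.16 ± 0.24 and 0.33 ± 0.01 (0.614 and 0.234). Of these 8 traffic genes 1 was called at day 14, lower, and 0 at the other time points, while 14.3% of all features were called at day 14. At time 0 the first and reverse labellings gave -0.43 and 0.03 for Nisch and -0.77 and -0.07 for Tmf1. They gave -0.52 and 0.09 for Sh3glb1, and 0.28 and -0.14 for Trappc1. The median of the 8 genes at time 0, with Arf6 and Tgoln1 among them and both labellings averaged, was -0.21, against 0.01 over all features. A low first labelling at time 0 was thus not particular to Arf6 and Tgoln1, as Nisch, Tmf1 and Sh3glb1 shared it. It was not shared by Snx13 (-0.06), Trappc1 (0.28) or Rabep1 (0.59). The share of all features with a low first labelling was not counted, and its cause was not tested.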

How the data were processed

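Total RNA (8 µg) was copied from oligo-dT with a dye-labelled nucleotide, per the labels, and denervated and contralateral RNA were hybridised together on each of 10 arrays. The authors quantified images with QuantArray and normalized each spot (global and lowess) with SNOMAD, per the labels. The deposited values are log2 ratios, positive for more RNA in denervated muscle, so no sign was turned. How background was corrected and spots were filtered is not given here, and without intensities signal over background is unknown. The number of arrays limits the precision.

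The 9216 spots were read as 2304 probes of 4 spots, a layout shown by the 97 named probes and inferred for the others. Spots were summarised by the median, probes of a gene were averaged, and 2300 features remained. Symbols were updated through Entrez identifiers in a RefSeq gene table (GRCm38.p6). The tests used limma 3.58.1 in R 4.3.3, two-sided, with Benjamini-Hochberg adjustment over all features and a threshold of 0.05. Each contrast was adjusted separately. One fit took the 10 arrays with a mean per time point (5 residual degrees of freedom), and 3 tests took time-point means. The members, lists and tests were chosen with earlier results of these data known. Named were the members, all measured traffic list genes and the 3 nearest named genes of each member. The replicate number of an array is its labelling and pairs no animals. Alternatives covered spot summary, centring, scaling, print blocks, repeated values, spot agreement, labelling as a block, time 0 and left-out arrays or days.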

Additional observations from a re-analysis of the deposited data

Results flagged for a closer look

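In the main fit Arf6 differed between time points by a test of the difference itself, narrowly. Its log2 ratio of denervated over contralateral muscle was 0.93 higher at day 3 than at time 0, with means of 0.55 and -0.38 (limma on 10 arrays, adjusted p = 0.0494). Both labellings showed the direction. This p takes both arrays of a time point as separate samples, and it was not adjusted across the comparisons of time points. With both arrays of time 0 and day 3 kept, the call was lost under 6 alternatives (adjusted p from 0.0522 to 0.0879). It held with repeated values left out, arrays scaled and spots within 2 log2 units (adjusted p from 0.00921 to 0.0452). The first and last of these left the Arf6 values themselves unchanged and altered only the other features.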

How the results depend on the processing

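Arf6 at day 3 minus time 0 (0.93, adjusted p = 0.0494) did not pass with the mean of the spots (0.93, 0.0637), arrays centred (0.91, 0.0587), print blocks centred (0.75, 0.0879), labelling as a replicate block (0.93, 0.0665), robust eBayes (0.93, 0.0522) or both day 14 arrays left out (0.93, 0.0661, chosen after seeing the data). It passed with repeated values left out (0.93, 0.0380), arrays scaled (0.85, 0.0452) and spots within 2 log2 units (0.93, 0.00921). The first and last of these left the Arf6 values themselves unchanged and altered only the other features. Without 1 array the Arf6 difference ranged from 0.72 to 1.15, with an arm of 1 array assumed to vary like the other time points. Restricted to features with spots within 2 log2 units of each other on all arrays, Arf6 at day 3 (0.55, adjusted p = 0.0200), Tgoln1 at day 3 (0.55, 0.0232), Tgoln1 at day 3 minus time 0 (0.77, 0.0201), Arf6 at day 7 minus time 0 (0.71, 0.0228) and Arf6 at day 14 minus day 3 (-0.64, 0.0384) passed. Fewer features (1285) were tested there, and Rabep1 had no value. Of these, 407 passed at day 3 and 569 for day 3 minus time 0. For day 7 minus time 0 it was 553 and for day 14 minus day 3 it was 429, so passing was common there. Arf6 at day 3 also passed with time 0 subtracted (0.93), which is the contrast above. The replicate block changed no other call of the 4 genes, and arrays sharing a labelling correlated at -0.07 to 0.41 across features.

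The directions that turned belonged to values that had not passed in the main fits. With 1 array left at day 14, Rabep1 was called higher or lower depending on which array stayed. Calls that rest on 1 array at a time point therefore decide nothing. With time 0 subtracted, Arf6 at day 14 was 0.29. With print blocks centred, Tgoln1 at day 14 was -0.17, Snx13 was -0.094 at time 0 and 0.069 for day 14 minus time 0, and the slopes of Snx13 and Rabep1 were 0.018 and -0.00098. With the mean of the spots, Rabep1 was 0.75 at day 3, 0.49 for day 3 minus time 0, -0.24 for day 14 minus day 3 and -0.28 for late minus early, and Snx13 was -0.0091 at time 0. With repeated values left out, the mean of Rabep1 was 0.064 and Snx13 at day 1 minus time 0 was -0.00061. With the first labelling alone, late minus early of Rabep1 was -2.07 and its slope -0.91, and the mean of Snx13 was -0.235. With the reverse labelling alone, the mean of Rabep1 was 1.03, late minus early of Snx13 0.37, its slope 0.10 and the slope of Tgoln1 -0.014. Without 1 array or time point, late minus early ranged from -0.43 to 0.057 for Arf6, -0.43 to 0.088 for Tgoln1, -0.27 to 0.87 for Rabep1 and -0.27 to 0.030 for Snx13. Tgoln1 at day 14 ranged from -0.18 to 0.27. Rabep1 ranged from -3.44 to 4.73 at day 14, -0.99 to 0.0035 at day 7, -3.84 to 4.33 for day 14 minus time 0 and -3.23 to 4.93 for day 14 minus day 3, with a mean of -0.31 to 0.065 and a slope of -0.26 to 0.10. Snx13 ranged from -0.059 to 0.078 at time 0, -0.024 to 0.086 at day 1, -0.49 to 0.75 at day 7 and -0.59 to 0.24 at day 14. Its differences from time 0 ranged from -0.047 to 0.090 at day 1, -0.50 to 0.75 at day 7 and -0.60 to 0.24 at day 14. Its day 14 minus day 3 ranged from -0.76 to 0.074, its mean from -0.0031 to 0.11 and its slope from -0.044 to 0.050. The cause was not tested.

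Counts over all features moved more. The 10-array fit called 0, 1, 183, 267 and 329 features at time 0 and days 1, 3, 7 and 14, and 0, 160, 252 and 92 for days 1, 3, 7 and 14 minus time 0, with 173 for day 14 minus day 3. With arrays scaled there were 4, 93, 59 and 15 at days 1, 3, 7 and 14, then 2 for day 1, 21 for day 7 and 0 for day 14 minus time 0, and 4 for day 14 minus day 3. With spots within 2 log2 units, where 1285 features were tested in place of 2300, there were 10, 5, 407 and 441 at time 0 and days 1, 3 and 7. The differences from time 0 had 3, 569, 553 and 209 calls, with 429 for day 14 minus day 3 and 21 for late minus early. Day 3 minus time 0 had 61 with the mean of the spots, 85 with arrays centred, 85 with the replicate block, 50 without day 14 and 282 with repeated values left out, when day 14 minus day 3 had 281. Day 1 minus time 0 had 1 with print blocks centred and 1 with repeated values left out. Day 1 had 0 with the replicate block, 0 with time 0 subtracted and 0 without day 14. With time 0 subtracted day 14 had 92 and the mean 13. With the time point as a random block the slope had 52 and late minus early 1, and the slope had 32 with the replicate block added. Without 1 array the counts ranged from 5 to 10 at time 0, 0 to 1 at day 1, 36 to 53 at day 3, 85 to 168 at day 7 and 261 to 327 at day 14. For differences from time 0 they ranged from 0 to 4 at day 1, 8 to 142 at day 3, 19 to 248 at day 7 and 40 to 231 at day 14, and for day 14 minus day 3 from 20 to 275.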
